A study of Drosophila melanogaster with 3 samples.

Results

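Cuticle protein genes were taken as the protein-coding genes on the main chromosome arms of the Ensembl BDGP6 annotation whose symbols begin with Cpr, Lcp, Ccp, Tweedle or Twdl followed by a capital letter or a digit. The rule found 115 genes among 13945. They were 70 Cpr genes, 23 Twdl genes, 15 Lcp genes and 7 Ccp genes. The symbols alone picked the genes, but the rule itself was set with earlier results of these data known. Mirror, encoded by mirr, is one of the Iroquois homeodomain proteins, and its binding had been mapped by chromatin immunoprecipitation and sequencing (ChIP-seq) in whole fly embryos. All 3 samples were biological replicates 1, 2 and 3 of 1 group: embryos of both sexes together, 4 to 20 h old, of a strain in which a transgene adds GFP to the C-terminus of Mirror. Chromatin was sonicated to 200 to 800 bp, and the replicates shared a control alignment. No untagged strain or other genotype was among the samples, so every value below is a position, a rank or a count in the peak lists of this 1 line with all ages pooled.

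The insect cuticle is a layered sheet of chitin fibres and protein that the epidermis and tracheae secrete late in embryogenesis and replace at each moult under the control of ecdysone. Most Cpr, Lcp and Ccp genes code for small secreted proteins that carry a chitin-binding consensus, and Twdl genes code for the Tweedle proteins, a separate family of secreted cuticle proteins known from mutants with a changed body shape. The genes are short and lie in tandem arrays, and their members are switched on in set stages and body regions. Iroquois proteins set up pattern in the dorsal eye, the wing and the notum.

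The optimal irreproducible discovery rate (IDR) list, the authors' final set of peaks, held 6201 peaks, which were the regions with the highest signal in the pooled call. Signal is the value the authors' peak caller gave to each region, on a scale that is not stated, and rank 1 marks the strongest region of a list. Of the 115 cuticle protein genes, 2 (1.74%) had an IDR summit within 1000 bp of a transcription start site (TSS), where 25.1% of all genes had one. The 2 genes were Cpr73D and Cpr65Av. Cuticle protein genes are short and offer few TSSs, so they were also set beside the 2805 other genes that had 1 TSS and a span between 752 and 1497 bp, the interquartile range of the cuticle protein genes. Of those, 14.4% had an IDR summit in the window. Fewer cells with binding and weaker binding per cell cannot be told apart in whole embryos.

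Cpr65Av (FBgn0052405) codes for a cuticle protein of the 65A array and spans chr3L:6139223-6139974 on the minus strand of dm6. Its peak, at chr3L:6140139-6140534, had rank 4439 of 6201 and a signal of 237.4, and its summit lay 363 bp upstream of the TSS between genes. It was the only IDR summit within 1000 bp of a cuticle protein gene whose nearest TSS belonged to such a gene. The region covering this peak ranked 6162 with a signal of 77.6 in replicate 1, 6326 with 53.5 in replicate 2 and 3091 with 113.6 in replicate 3. In every replicate it therefore stood near or inside the strongest 6201 regions, highest in replicate 3 and just beyond that number in replicate 2. The 201 bases around the summit are shown because they are the one stretch in which the final peak list and a cuticle gene array meet. The capital marks the summit base. None of the sequences searched, which are spelled out with the promoters, occurred within 100 bp of this summit, and 42.3% of these bases were G or C. The second line gives the start of the gene, 60 bases before the TSS to 19 bases after it, with the TATAAA sequence in capitals. Both were read from the RefSeq release 6 (dm6) genome.
Cpr65Av, chr3L:6140237-6140437, plus strand: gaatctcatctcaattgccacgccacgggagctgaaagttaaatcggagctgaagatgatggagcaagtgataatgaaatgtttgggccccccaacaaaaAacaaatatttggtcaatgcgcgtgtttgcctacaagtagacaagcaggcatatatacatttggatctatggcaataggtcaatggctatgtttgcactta
Cpr65Av, chr3L:6139955-6140034, minus strand: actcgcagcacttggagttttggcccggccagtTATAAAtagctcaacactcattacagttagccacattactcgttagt

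Cpr73D (FBgn0036680), at chr3L:16939100-16957689 on the minus strand, was the cuticle protein gene nearest to an IDR summit, at 220 bp. Its upstream TSS faces that of Ogdh, the gene for a subunit of the 2-oxoglutarate dehydrogenase of the citric acid cycle, and the genes overlap. The peak of rank 1963 had a signal of 377.1 and a summit 430 bp inside Cpr73D, which was 180 bp from an Ogdh TSS. The peak of rank 5467 had a signal of 208.4 and a summit 220 bp inside Cpr73D, which was 30 bp from the same Ogdh TSS. Both summits were thus nearer to Ogdh than to the cuticle gene. One region per replicate covered both, with rank 1669 and signal 160.7 in replicate 1, rank 1185 and signal 129.5 in replicate 2, and rank 2293 and signal 134.3 in replicate 3. A peak of rank 2151 lay 1150 bp upstream of Cpr73D inside Ogdh, with replicate ranks of 3826, 1607 and 1918. A peak of rank 4457 lay 2232 bp inside Cpr73D and 43 bp from another Ogdh TSS. The shared stretch is shown on the plus strand, because it holds the facing starts of both genes. It also holds the summit of the peak of rank 5467, at chr3L:16957469, which is not marked. The stronger peak of rank 1963, at chr3L:16957114-16957360, lies outside it, to the left. Capitals in the stretch mark the start base of Ogdh at position 45, counted from the left end, and the start base of Cpr73D at position 295.
Ogdh/Cpr73D, chr3L:16957395-16957694, plus strand: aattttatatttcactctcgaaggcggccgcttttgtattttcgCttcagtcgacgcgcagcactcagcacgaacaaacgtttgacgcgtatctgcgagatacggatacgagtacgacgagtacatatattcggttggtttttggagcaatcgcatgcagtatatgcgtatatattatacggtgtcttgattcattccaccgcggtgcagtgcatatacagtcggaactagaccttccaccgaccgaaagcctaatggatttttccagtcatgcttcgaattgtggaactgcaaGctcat

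The count did not come from the pooled call alone. When each replicate list was limited to its own 6201 strongest regions, 2 cuticle protein genes were called in each of the 3 replicates, against 28.1%, 22.4% and 22.6% of all genes in replicates 1, 2 and 3. Cpr73D and Cpr65Av were called in replicates 1 and 3. In replicate 2 they were Cpr73D and Lcp9, a gene for a larval cuticle protein. Only Cpr73D was among the strongest regions of all 3 replicates. None of the 115 genes had one of the 1000 strongest regions of any replicate nearby, whereas 5.99%, 4.52% and 4.9% of all genes did. Among the 12000 strongest regions, 7, 8 and 7 cuticle protein genes were called (6.09%, 6.96% and 6.09%), against 42.5%, 35.5% and 34.1% of all genes.

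**Figure D1:**
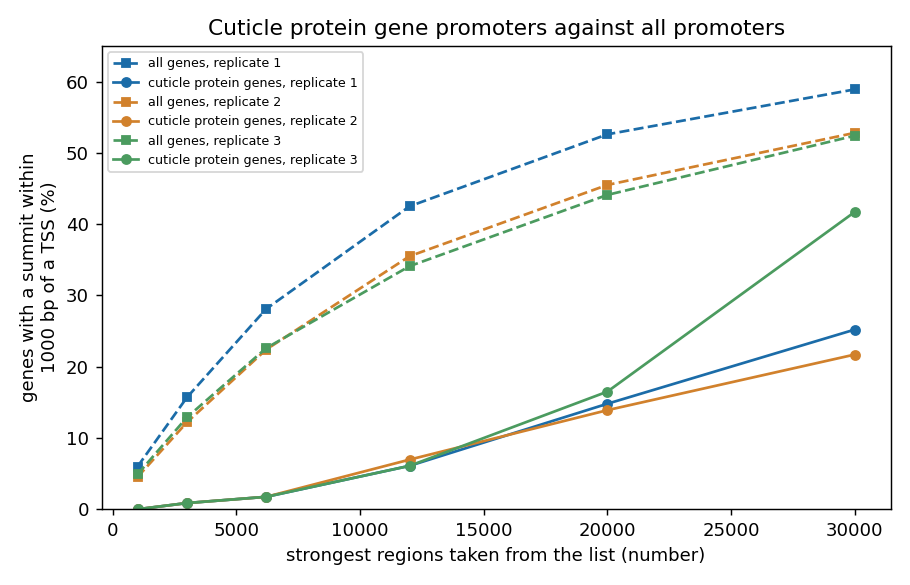
Share of genes (%) with a summit within 1000 bp of a TSS, against the number of strongest regions taken from each replicate list; circles and solid lines are the 115 cuticle protein genes, squares and dashed lines all 13945 genes. The 3 cuticle lines run together up to 20000 regions, and replicate 3 then reaches 41.7% at 30000 regions while replicates 1 and 2 reach 25.2% and 21.7%.

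The relaxed lists, which hold 30000 regions per replicate without an IDR threshold and thus also many weak regions, placed a summit within 1000 bp of 29 cuticle protein genes in replicate 1, of 25 in replicate 2 and of 48 in replicate 3 (34.0 ± 12.3, SD, n = 3). The shares of all genes were 58.9%, 52.8% and 52.4%. The pooled relaxed list gave 29 cuticle protein genes, against 54.5% of all genes. Replicate 3 was thus high for cuticle protein genes and not for all genes. The excess lay among its weakest regions. At 20000 regions the replicates gave 17, 16 and 19 genes (14.8%, 13.9% and 16.5%), against 52.6%, 45.5% and 44.1% of all genes. The 25 cuticle protein genes found in replicate 3 alone had a median rank of 24374, and 19 of them had ranks beyond 20000. The 25 included 5 of the 8 genes of the Cpr49A array, Cpr49Aa, Cpr49Ab, Cpr49Ac, Cpr49Af and Cpr49Ag. Cpr49Aa and Cpr49Ab shared the region of rank 24374, and Cpr49Af and Cpr49Ag that of rank 27528. The 25 genes are therefore not 25 separate regions. Replicate 1 alone gave 6 genes and replicate 2 alone gave 2. Genes found in 1 replicate alone were 20.7%, 8% and 52.1% of the cuticle protein genes called in replicates 1, 2 and 3. Over all genes these shares were 8.8%, 4.41% and 11.7%. Whether depth, which is unknown, differed between the replicates was not tested.

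Most regions at cuticle protein genes were weak, with Cpr73D and Cpr65Av as exceptions. The strongest region within 1000 bp had a median rank of 19272 over the 29 genes of replicate 1, 14744 over the 25 of replicate 2 and 22930 over the 48 of replicate 3. Over all genes with a region, these medians were 6592, 7634 and 7725. Of the 115 genes, 55 (47.8%) had no region in any replicate, 33 (28.7%) had one in 1 replicate, 12 (10.4%) in 2 and 15 (13%) in all 3. Over all genes, 30.8% had a region in no replicate, 13.7% in 1, 16.3% in 2 and 39.3% in all 3. The share in all 3 was 24.5% for the other genes of similar span with 1 TSS. Between replicates, 19 cuticle protein genes were shared by 1 and 2, which is 65.5% and 76% of their lists. For all genes the same overlap was 82.6% and 92.1%. Replicates 1 and 3 also shared 19 (65.5% and 39.6%), against 75.4% and 84.7% for all genes. Replicates 2 and 3 shared 19 as well (76% and 39.6%), against 78% and 78.6%, so the share of the replicate 2 list was close to that of all genes.

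The 15 recurrent genes comprised 7 Cpr, 5 Lcp and 3 Twdl genes and no Ccp gene. By family they were 7 of 70, 5 of 15, 3 of 23 and 0 of 7. By the mean of the 3 ranks, Cpr57A came after Cpr73D and Cpr65Av, with ranks of 9098, 7895 and 12143 in replicates 1, 2 and 3 and summits 5, 46 and 77 bp from its TSS. Cpr78Cb had ranks of 12656, 9206 and 11223, with the nearest summits 149, 92 and 128 bp from a TSS. Both genes thus had regions of middle rank in every replicate, and none reached the strongest 6201. Among the Tweedle genes, TwdlP had ranks of 11684, 10064 and 11868, with the nearest summits 218 to 282 bp from the TSS. TwdlN had ranks of 11536, 12340 and 16974, with the nearest summits 67, 0 and 10 bp from the TSS. Where a gene had several regions, the nearest summit need not belong to the ranked one. TwdlM, at the end of the same array, had the weakest mean rank of the 15, with ranks of 25308, 28964 and 26558, although Cpr67B was weaker in replicates 1 and 3.

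The replicates were less alike at Lcp9, which ranked 6732 in replicate 1 and 6133 in replicate 2 but 26570 in replicate 3, with signals of 72.8, 54.6 and 26.6. Its nearest summits lay at nearly the same distance from the TSS in each list, 423, 480 and 438 bp. At Cpr65Aw replicate 3 was the strongest instead, with ranks of 15770, 14744 and 7703. Cpr100A ranked 27871, 20145 and 23307, and Cpr67B ranked 28175, 17314 and 29579. The remaining 4 genes lie in the 65A array. Lcp65Ag3 ranked 20650, 14725 and 13810, Lcp65Ad 15770, 22137 and 12066, Lcp65Ag2 17763, 18186 and 19850, and Lcp65Ae 23147, 21224 and 19037. Neighbouring genes can share a region, as Cpr65Aw and Lcp65Ad did in replicate 1, so the 15 genes are not 15 separate binding regions.

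**Figure D2:**
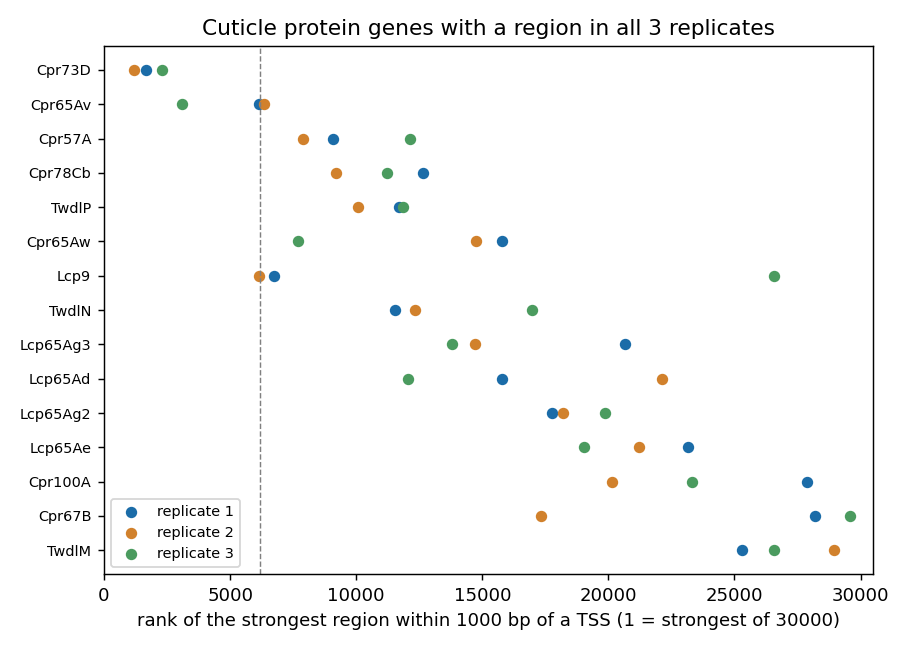
Rank of the strongest relaxed region within 1000 bp of a TSS (1 = strongest of 30000) for the 15 cuticle protein genes found in all 3 replicates; each point is 1 replicate, and the dashed line marks rank 6201. Points left of the line belong to Cpr73D in all 3 replicates, Cpr65Av in replicates 1 and 3, and Lcp9 in replicate 2.

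The distance to the nearest IDR summit gave the same picture without a window. Its median was 17694 bp for the cuticle protein genes, with quartiles of 7272 and 33831 bp, against 5876 bp for all genes and 7623 bp for the other genes of similar span with 1 TSS. Within 5 kb, 15 cuticle protein genes (13%) had a summit, against 46.2% of all genes and 39.8% of the genes of similar span. Within 10 kb they were 37 (32.2%), against 61.8% and 55.5%. The family medians were 6744 bp for Lcp, 14300 bp for Cpr, 31753 bp for Twdl and 48955 bp for Ccp genes. All 7 Ccp genes lie in a single array and 12 of the 23 Twdl genes in another. These medians therefore partly reflect where a few arrays lie. The largest distance was 89599 bp, at Cpr92F. With the weaker regions of the relaxed lists all distances were shorter. The nearest pooled relaxed summit lay at a median of 3021 bp from cuticle protein genes, 614 bp from all genes and 1772 bp from the genes of similar span. In replicates 1, 2 and 3 the medians were 3615, 4265 and 1572 bp for cuticle protein genes. Over all genes they were 344, 732 and 836 bp, and over the genes of similar span 1570, 1874 and 1702 bp.

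**Figure D3:**
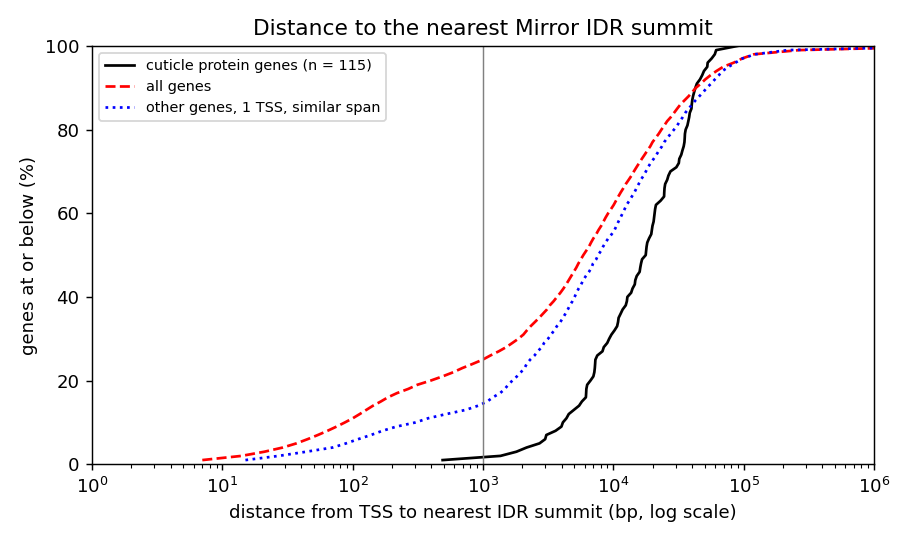
Cumulative share of genes (%) by distance from the nearest TSS to the nearest IDR summit (bp, log scale); the grey line marks 1000 bp. The curve of cuticle protein genes lies to the right of the other curves over most of its range, with medians of 17694, 5876 and 7623 bp for cuticle protein genes, all genes and other genes of similar span with 1 TSS.

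Of the IDR peaks, 11 lay within 5 kb of a cuticle protein gene's TSS, and for 4 of them that gene had the nearest TSS. Just outside the window of 1000 bp lay Cpr47Eg at 1264 bp, Cpr76Ba at 1605 bp and Cpr65Aw at 2076 bp. The summit near Cpr47Eg was 16 bp from the TSS of Vhl, the von Hippel-Lindau tumour suppressor homologue, and had rank 1566. The summit near Cpr76Ba lay between genes with Cpr76Ba as the nearest, and was the strongest of all that had a cuticle protein gene nearest, with rank 657 and a signal of 610.3. It ranked 905 in replicate 1 and 270 in replicate 3, but no region of replicate 2 overlapped the peak, so it did not recur in all 3 replicates. The summit near Cpr65Aw is the one upstream of Cpr65Av. Over any distance, 5 IDR summits had a cuticle protein gene nearest: those at Cpr65Av, Cpr76Ba and 1150 bp upstream of Cpr73D, 1 at 4569 bp from Cpr64Ad inside CG43367 (rank 1015), and 1 at 14017 bp from Cpr92A inside Dys, the dystrophin gene (rank 1017). The peak of rank 13, with a signal of 2308.8, was 4012 bp from Cpr78Cc but 66 bp from the TSS of CG11309.

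Cuticle protein genes lie in tandem, with 84 of the 115 in 15 runs of at least 3 genes and gaps of at most 20 kb, named here by their first and last gene. The runs cover 235 kb, and the peak upstream of Cpr65Av was the only IDR summit in them. Over all arms the IDR list held 46.3 summits per Mb. The runs varied more in the weaker regions. In replicate 3 they held 0.255 regions per kb, in replicate 1 0.17 and in replicate 2 0.136, where each relaxed list averaged 0.224 over the arms. Without the run Lcp65Ag3-Cpr65Az, the values fell to 0.211, 0.127 and 0.0833. No region of any list had its summit in 5 of the runs, Lcp1-Lcp4, Cpr64Aa-Cpr64Ad, Cpr72Ea-Cpr72Ec, Cpr76Ba-Cpr76Bd and TwdlX-TwdlZ. For spans of their lengths the arm average of a relaxed list gives 1.88, 1.92, 1.06, 4.65 and 1.74 regions, in the same order.

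**Figure D4:**
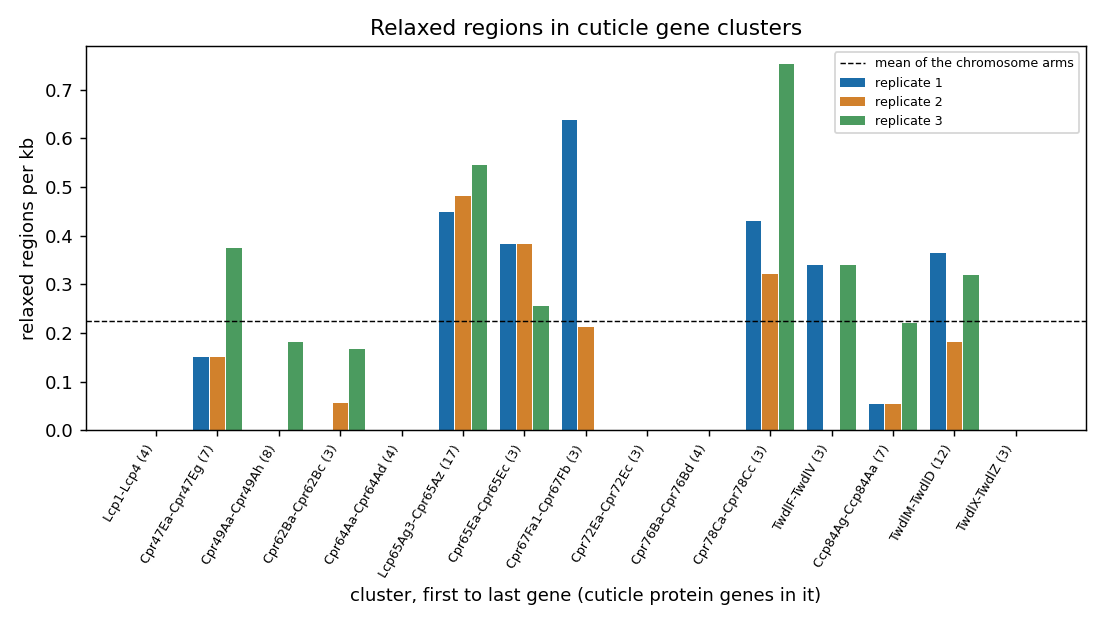
Relaxed regions per kb in each of the 15 runs of cuticle protein genes, with 1 bar per replicate and the number of genes in brackets; the dashed line is the mean of the chromosome arms, 0.224 per kb. The run Lcp65Ag3-Cpr65Az is above the line in all 3 replicates, at 0.449, 0.481 and 0.545, and so are Cpr65Ea-Cpr65Ec and Cpr78Ca-Cpr78Cc, which are far shorter.

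The classical larval cuticle protein genes Lcp1 to Lcp4, at chr2R:8430115-8438495, lay in the widest stretch without IDR summits of any run, 213933 bp, which was 45th in length among the 6195 intervals between neighbouring summits (median 5011 bp). The nearest relaxed summit to Lcp4 was at 7132, 14316 and 5367 bp in replicates 1, 2 and 3. The run Ccp84Ag-Ccp84Aa (chr3R:6686728-6704903), between the cuticle gene Edg84A and the Hox gene pb in the Antennapedia complex, lay in a stretch of 166290 bp, 82nd in length. This run of 7 genes had 1, 1 and 4 regions in the 3 replicates, where the arm average gives 4.07. The stretch around Cpr65Ea-Cpr65Ec was 139407 bp, yet that run had 3, 3 and 2 weak regions in its 7.84 kb (arm average 1.76). The run Cpr49Aa-Cpr49Ah, with 8 genes between CG13159 and CG13157, had no region in replicates 1 and 2 and 7 in replicate 3 (arm average 8.64). Cpr47Ea-Cpr47Eg, between CG43112 and CG9067, had 4, 4 and 10 (arm average 5.98). The 12 Tweedle genes of TwdlM-TwdlD, between scrib and beat-VII, had 8, 4 and 7 regions (6.33 ± 2.08, SD, n = 3), where the arm average gives 4.92 for a span of that length. Cpr78Ca-Cpr78Cc, which also holds the cuticle gene Edg78E, had 4, 3 and 7 (arm average 2.09). The runs Cpr62Ba-Cpr62Bc, Cpr67Fa1-Cpr67Fb and TwdlF-TwdlV had 0 to 3 regions in each replicate, where the arm average gives 4.02, 1.05 and 1.98.

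The run Lcp65Ag3-Cpr65Az, between l(3)mbn and Prdm13, holds genes for larval cuticle proteins and is the longest array by gene number, with 17 cuticle protein genes in 31.2 kb together with Acp65Aa, an adult cuticle protein gene, and CG13297. It held 14, 15 and 17 regions in replicates 1, 2 and 3 (15.3 ± 1.53, SD, n = 3), and all 3 values were above the 6.99 that the arm average gives. When overlapping regions were merged, 9, 13 and 15 remained. The pooled relaxed list had 17 regions here with a median rank of 19011. Of these, 14 lay within 1000 bp of a cuticle protein gene's TSS, and 10 overlapped a region in all 3 replicates. Neighbouring pooled regions at Lcp65Ag2, and likewise at Lcp65Ag3, overlapped the same region of each replicate, so the 10 are not 10 separate places. Merging overlapping regions left 13 in the pooled list.

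The regions were uneven along the array. Its first 15.6 kb, from Lcp65Ag3 to Lcp65Ac, held 10, 12 and 13 regions. The next 5.1 kb, which hold the near-identical copies Lcp65Ab1 and Lcp65Ab2 with Cpr65Ax1 and Cpr65Ax2, held 0 in every list, and the last 10.5 kb held 4, 3 and 4. Lcp65Ab1 and Lcp65Ab2 lie in copies 99% identical over 1674 bp, and Cpr65Ax1 and Cpr65Ax2 in copies 99.8% identical over 1242 bp. Near-identical copies, of at least 95% identity over at least 300 bp, were found for 10 cuticle protein genes. Besides these 4 they were Lcp65Aa, Lcp65Ag1, Lcp65Ag2, Lcp65Ag3, Ccp84Aa and Ccp84Ab. For Lcp65Aa the match, to Cpr65Ax1, lay beside the gene and not in it. The duplicated stretch ends at chr3L:6151099, and Lcp65Aa starts at chr3L:6151304. Reads from such copies map to more than one place, how the authors treated them is not given in the sources used here, and the absence of regions at these genes is therefore uncertain. Its relation to mapping was not tested. Regions were present at Lcp65Ag2 and Lcp65Ag3 in all 3 replicates, although these too are copies, 96.4% identical to each other over 470 bp. Lcp65Ag1 matched Lcp65Ag2 more closely, at 98.4% over 450 bp.

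**Figure D5:**
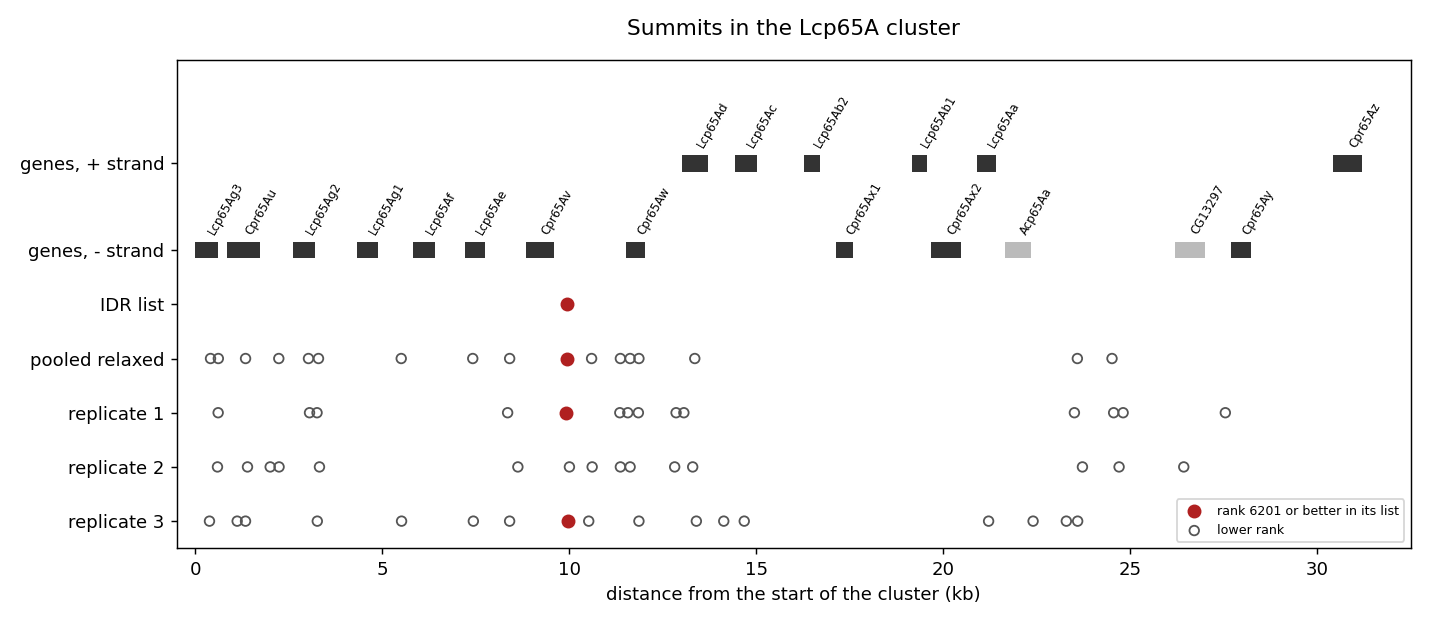
Genes and summits of the Lcp65A cluster against distance from its start (kb); dark boxes are cuticle protein genes, light boxes other genes, filled circles regions of rank 6201 or better and open circles weaker ones in each list. The filled circles mark the region upstream of Cpr65Av, and no list has a summit over the duplicated genes Lcp65Ab2 to Cpr65Ax2.

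Most cuticle protein genes had a TATA sequence at the start. TATAAA, the core of the TATA box, occurred on the gene's strand within 50 bases before the start in 75 of 115 genes (65.2%), against 10.6% of all genes and 5.21% of genes with an IDR summit in the window. It began at a median of 29 bases before the start, in a range of 18 to 50. The share was 85.7% for Ccp, 80% for Lcp, 65.2% for Twdl and 60% for Cpr genes. Over all genes, 12.3% of the 1476 with this TATAAA had an IDR summit within 1000 bp, against 26.6% of the 12469 without it. Among cuticle protein genes the split made little difference in number, with 1 of 75 (1.33%) and 1 of 40 (2.5%). The promoters of 6 of the recurrent genes are shown with those of Ccp84Aa and Ccp84Ab, to compare genes that differ in the replicate lists. Both Ccp84Aa and Ccp84Ab had no region within 1000 bp in any list. They lie in copies 98.8% identical over 589 bp, so this absence of regions is uncertain. Each is 60 bases before to 19 after the start, on the gene's strand, from RefSeq release 6 (dm6), with TATAAA in capitals. Cpr65Aw and Cpr78Cb have none.
Cpr65Aw, chr3L:6142394-6142473, minus strand: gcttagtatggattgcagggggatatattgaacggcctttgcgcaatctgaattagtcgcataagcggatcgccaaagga
Cpr78Cb, chr3L:21294432-21294511, plus strand: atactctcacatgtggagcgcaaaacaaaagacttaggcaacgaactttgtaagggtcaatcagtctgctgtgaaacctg
TwdlP, chr3R:26621345-26621424, minus strand: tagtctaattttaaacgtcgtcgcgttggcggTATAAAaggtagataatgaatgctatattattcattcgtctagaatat
TwdlN, chr3R:26631809-26631888, plus strand: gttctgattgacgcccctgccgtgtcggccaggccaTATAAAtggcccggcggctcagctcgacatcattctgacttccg
Lcp65Ag2, chr3L:6133574-6133653, minus strand: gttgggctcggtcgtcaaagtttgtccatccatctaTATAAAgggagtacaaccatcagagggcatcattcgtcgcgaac
Lcp65Ag3, chr3L:6130970-6131049, minus strand: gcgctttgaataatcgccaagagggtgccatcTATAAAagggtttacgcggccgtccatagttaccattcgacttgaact
Ccp84Aa, chr3R:6704024-6704103, plus strand: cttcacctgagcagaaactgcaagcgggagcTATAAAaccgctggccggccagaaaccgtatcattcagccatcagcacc
Ccp84Ab, chr3R:6702858-6702937, minus strand: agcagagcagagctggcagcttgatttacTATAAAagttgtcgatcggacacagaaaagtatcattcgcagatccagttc

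Other sequences were counted on both strands from 250 bases before to 50 bases after the start. TATCGATA, the DREF-binding element typical of housekeeping promoters, was in 0.87% of cuticle promoters, 9.36% of all promoters and 12.8% of the promoters of genes with an IDR summit. GGTCACACT, another element of broadly expressed genes, was in 0 of 115 cuticle promoters, 6.05% of all and 7.93% of those of bound genes. GATAAG was in 6.96%, 18.9% and 22.4%, and GAGAG, the core of the GAGA element, in 30.4%, 29.7% and 34.3%. AACCGGTT, the palindrome bound by Grainyhead, was in 0% of cuticle promoters and 0.753% of all. TCAGTT, an initiator sequence, was in 20% and 17.9% on the gene's strand. The median G and C content was 44% for cuticle promoters and 38% for all.

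The palindrome ACANNTGT, which Iroquois proteins bind in vitro, was in 11 cuticle promoters (9.57%), against 13.4% of all promoters and 15.7% of those of genes with an IDR summit. None of the 11 genes had a region within 1000 bp in all 3 replicates, and 6 had none in any. Over all cuticle protein genes the shares were 13% and 47.8%, and 11 genes are too few for a comparison with them. The 6 include the near-identical copies Lcp65Ab1 and Lcp65Ab2, where the absence of regions is uncertain. Examples are shown with the palindrome in capitals and on the gene's strand, because they are the cuticle promoters that hold the factor's own sequence. Lcp65Ab2 and Lcp65Ab1 are the near-identical copies, TwdlC and Cpr76Bc had no region in any replicate, and Cpr72Ea and Cpr66D had a region in 1 replicate. The matches began 115, 118, 219, 61, 179 and 125 bases before the start, in the order printed.
Lcp65Ab2, chr3L:6146548-6146577, plus strand: aaaatcgtcatACAATTGTccaagctaatt
Lcp65Ab1, chr3L:6149419-6149448, plus strand: aaaatcgtcatACAATTGTccaagcaaatt
TwdlC, chr3R:26994602-26994631, plus strand: gaacccaaaagACACGTGTcgcagacttct
Cpr76Bc, chr3L:19520873-19520902, plus strand: ggatatatacaACATATGTatatataagtt
Cpr72Ea, chr3L:16362413-16362442, plus strand: aagagcataaaACATTTGTatactctctta
Cpr66D, chr3L:8640303-8640332, plus strand: cacccaaaaaaACAGCTGTtgtaaatcagc

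Other genes of cuticle formation were counted by the same window of 1000 bp, against 25.1% of all genes. Of 29 other structural cuticle protein genes, 2 (6.9%) had an IDR summit. They were snsl, with a peak of rank 6172 at 42 bp, and qsm, which codes for a zona pellucida domain protein, with rank 3856 at 213 bp. Of 23 genes of chitin synthesis and organisation, 3 (13%) did. The strongest was mmy, the UDP-N-acetylglucosamine pyrophosphorylase gene that supplies the chitin precursor, with a best peak rank of 457 and its nearest summit at 88 bp. The others were Idgf5 (rank 1307, at 636 bp) and verm, a chitin deacetylase gene (rank 5840, at 901 bp). Of 10 tanning and pigmentation genes, 2 (20%) did, Pu, which codes for GTP cyclohydrolase (rank 3141), and ple, which codes for tyrosine hydroxylase (rank 4913).

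Of 14 regulators of cuticle and moulting, 7 (50%) had an IDR summit in the window, and 13 (92.9%) had a relaxed region there in all 3 replicates. That share was 39.3% for all genes, 56.5% for the chitin genes, 40% for the tanning genes, 27.6% for the other structural genes, 7.26% for odorant, gustatory and ionotropic receptor genes and 4% for the Osiris genes. The nuclear receptor genes Eip75B and ftz-f1 had peaks of rank 885 and 928, and the others were EcR and usp, which code for the ecdysone receptor and its partner, with Hr3, Hr38 and Hr39. These genes have a median span of 46196 bp, against a median span of 983 bp for the cuticle protein genes. The part of span in this count was not tested. Of the 25 Osiris genes, another tandem family expressed in cuticle-secreting epithelia, 0 had an IDR summit, and their median distance to one was 105190 bp. Odorant, gustatory and ionotropic receptor genes, short genes of other tissues, had one in 5 of 179 (2.79%). Shares well below that of all genes were thus also found in other lists of short genes.

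The symbol Cpr without a following letter or digit belongs to a different gene, FBgn0015623, which codes for cytochrome P450 reductase and is not a cuticle protein gene. It had 3 IDR summits within 1000 bp, the strongest with rank 24 and a signal of 1851.6, and the nearest 55 bp from the TSS. A looser reading of the symbols would thus have added a strongly bound gene of another kind.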

How the data were processed

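The deposited files were peak lists in narrowPeak format from ChIP-seq of GFP-tagged Mirror. Per the deposited file descriptions, the authors called regions in each replicate and on all 3 alignments together against a control, on dm6, and derived the IDR list from these. The signal column of each list was deposited by the authors without a stated scale and was used only to rank regions within a list. The aligner, the caller and the IDR threshold are not given in the sources used here, and depth is unknown, so no counting interval could be given. The free-text description of the samples names an input control, while the title, the assay and the antibody fields name transcription factor ChIP, and the lists were read as ChIP. Embryo age follows the source name, since the value under the age tag is not readable as an age of embryos. No region was identical between replicate lists. Each relaxed list held 30000 regions, so its length carries no information. The labels name biological replicates without describing the embryo collections.

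Summits were placed on the Ensembl 115 annotation (BDGP6.54), with 19607 TSSs of protein-coding genes, and no region ran past the end of an arm. A gene was called when a summit lay within 1000 bp of any of its TSSs. Runs of genes were at least 3 members with gaps of at most 20 kb. Copies were searched with blastn 2.17.0, sequences with pysam 0.24.0, and tables were made with Python 3.11.15, pandas 2.3.3 and numpy 2.4.6. The assignment of summits was tested on simulated data. With 1 group there was no comparison between groups and no test was run: shares stand beside those of all genes. The members, lists, sequences and alternatives were chosen with earlier results of these data known. Named genes were those with an IDR summit near a TSS or in the gene, those with a region in all 3 replicates, the ends of runs and the genes flanking runs of at least 5 genes, those just outside the window, genes nearest to named summits and the bound genes of other lists. Protein sequences were not analysed here.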

Additional observations from a re-analysis of the deposited data

How the results depend on the processing

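No paired analysis was possible because the samples form 1 group. The count of 2 cuticle protein genes with an IDR summit was the same with a window of 500 bp (all genes 21.1%). It was also the same with the 5' end of the gene alone (22.9%) and with any base of the peak (26.2%). It was 4 at 2000 bp (30.8%), 15 at 5000 bp (46.2%) and 5 by the nearest TSS at any distance (24.1%). It was 1 inside the gene body (16.3%) and 1 with the strongest 3100 IDR peaks (14.2%). With the other structural cuticle genes added it was 4 of 144 genes (25.1%). Assigning summits to the nearest TSS within 1000 bp, chosen after seeing the data, left 1 (19%). The 15 genes found in all 3 replicates became 30 at 2000 bp (48.1%) and 5 with the strongest 15000 regions of each list (29%). With the strongest 6201 regions they became 1 (14.8%). Leaving out replicate 1, 2 or 3 gave 19 each time, against 41.2%, 44.4% and 48.6% of all genes. The 1 IDR summit in the runs became 0 with the strongest 3100 IDR peaks, 0 without the Lcp65A cluster (chosen after seeing the data) and 6 when spans were extended by 5 kb; it stayed 1 with gaps of 10 or 50 kb. The mean of 2 genes over the strongest 6201 regions of the replicates became 1 with 3000 regions (13.6%) and 7.33 with 12000 (37.4%). It was 4.33 at 2000 bp (30.1%), and 2 without replicate 1, 2 or 3 (22.5%, 25.3% and 25.2%). In each setting that has a share of all genes, the share of cuticle protein genes was below it. The peak lists carry no depth and no untagged control, and near-identical copies limit what can be read at 10 genes.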
